A study of Mus musculus with 6 samples.

Results

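Oligodendrocyte precursor and differentiation genes were followed through the mouse brain at 3 ages. The 10 genes were taken by symbol, in the order in which the lineage is usually drawn, from the precursor to the newly formed cell: Pdgfra, Cspg4, Olig2, Sox10, Gpr17, Bcas1, Enpp6, Fyn, Myrf and Tspan2. Each has 1 row among the 19465 genes measured in every section. The samples were 6 coronal brain sections of untreated male C57BL/6J mice, 2 per age. Mice of postnatal day 21 (P21) came from crosses of wild-type C57BL/6J animals. The adult mice were 12 to 15 weeks old by their sample titles, and the aged mice were 28 months old and were supplied by the NIA. The paper's methods give Jackson Laboratory as the source of the mice, with no age set apart. If adult and aged mice had different suppliers, supplier and age cannot be told apart in aged vs. adult. The labels name no transgene or targeted allele. The labels give 2 biological replicates per age, and p-values measure the spread between these sections.

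Oligodendrocyte precursors are dividing glial cells that persist in the adult brain. They answer platelet-derived growth factor through the receptor encoded by Pdgfra and carry the NG2 proteoglycan encoded by Cspg4. On the way to myelination they pass through a short committed stage marked by the G protein-coupled receptor Gpr17, then through newly formed oligodendrocytes that switch on Enpp6, Bcas1 and Tspan2 while wrapping their first axons. Olig2 and Sox10 encode transcription factors that are present through the lineage, Myrf encodes the membrane-bound factor that turns on myelin genes, and Fyn encodes a Src-family kinase used both by neurons and by maturing oligodendrocytes.

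Expression was read with the Visium assay for formalin-fixed tissue, in which pairs of probes for each gene are captured on barcoded spots and counted as unique molecular identifiers (UMIs). A spot holds several cells, so a lower level cannot tell apart fewer cells of a type from less RNA per cell. After removal of poor spots, 2917 to 3679 spots remained per section, with a median of 12074.5 to 25535 UMIs per spot and 42422997 to 106783660 UMIs per section. P21 and adult sections were mounted on Visium v1 slides, whereas aged sections were transferred by CytAssist to Visium v2 slides with another probe design, so in aged vs. adult the slide version and the age cannot be told apart. Barcodes of the aged sections shared none with the other sections, and within a slide type up to 3363 barcodes were shared by 2 sections, since barcodes belong to the array. Spots were named by clustering without the lineage genes into FT (fiber tracts), STR (striatum), HY (hypothalamus), TH (thalamus), HP (hippocampus) and CTX (cortex), each by its own marker panel, and 8.61% of spots lay in no such region. The smallest of these 36 sums held 137 spots (STR, P21 section 2). FT joined 2 clusters, and the one led by Klk6, C4b and C3 held 47.6% and 39.6% of the FT spots (P21), 39.9% and 50.3% (adult) and 73.1% and 79.7% (aged).

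Over whole sections, Gpr17, Enpp6, Tspan2, Sox10 and Fyn were higher at P21 than in adults, and Pdgfra, Cspg4, Olig2, Bcas1 and Myrf were not called. A call needed a Benjamini-Hochberg adjusted p under 0.05 over all genes tested and a fold change above 1.5, in edgeR's quasi-likelihood fit of the summed UMIs. By this rule 5 of the 10 members were called higher at P21 and 0 lower, beside 5.69% of the 18104 genes tested that were called higher. The median log2 fold change of the members was 0.53 and that of all genes was 0.0039. DESeq2 called 5 members as well. At an adjusted p under 0.05 in edgeR with no demand on the fold 8 passed, among them Bcas1, which was lower at P21 (log2 fold change -0.32, adjusted p = 0.0483). The 5.69% of all genes belongs to the rule with the fold and cannot be set beside those 8.

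**Figure D1:**
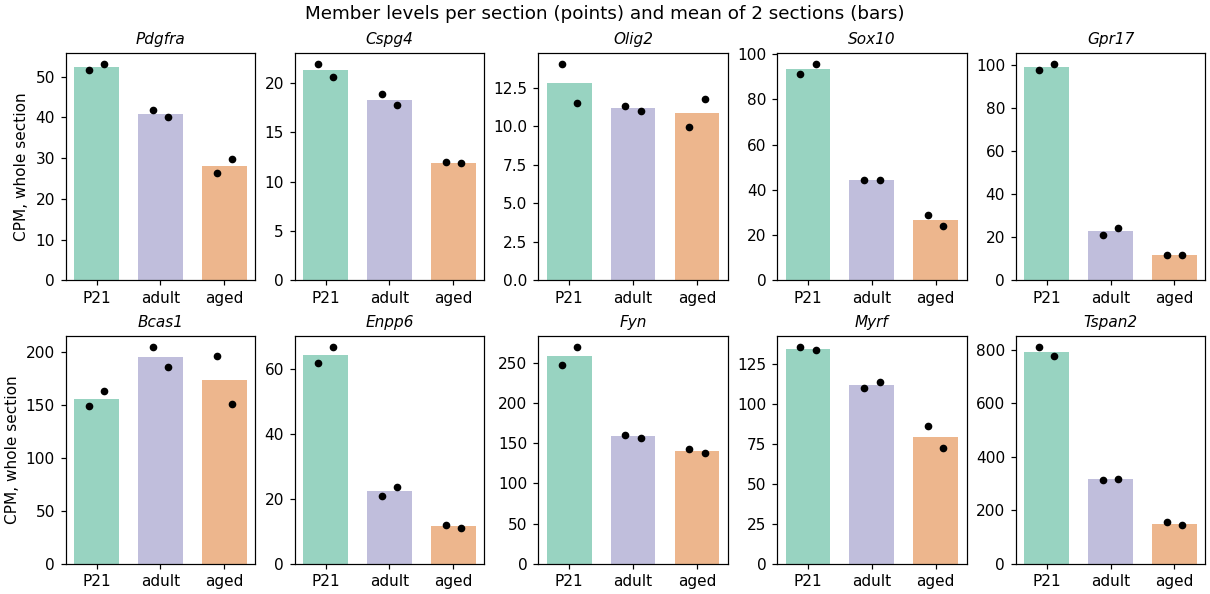
Level of each member over the whole section, in CPM (UMI counts over the TMM-scaled library total, vertical axis from 0), at P21, adult and aged (horizontal axis). Points are single sections and bars are the mean of 2 sections. For every member but Olig2 and Bcas1, both P21 points lie above both adult points, and both adult points lie above both aged points.

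Gpr17 (ENSMUSG00000052229), the receptor of the committed stage, was at 98.02 and 101 CPM (P21), 21.1 and 24.5 CPM (adult) and 11.7 and 11.6 CPM (aged). These values are CPM, UMI counts divided by the TMM-scaled library total of their section, and the 3 ages did not overlap. The P21 sections stood 2.12 log2 units above the adult ones (SE 0.078, adjusted p = 4.41e-08). Enpp6 (ENSMUSG00000038173, chr8:46986887-47096762, plus strand), a choline-specific phosphodiesterase of newly forming oligodendrocytes, was at 61.9 and 66.8 CPM (P21), 20.99 and 23.6 CPM (adult) and 12.03 and 11.04 CPM (aged). Its 2 P21 sections were both more than 2 times above either adult section (log2 fold change 1.53 ± 0.080 SE, adjusted p = 5.60e-07). Tspan2 (ENSMUSG00000027858, chr3:102734529-102801513, plus strand), a tetraspanin of newly formed and myelinating cells, was at 809 and 777 CPM (P21), 313 and 317 CPM (adult) and 155 and 144 CPM (aged). Here too P21 and adult were fully apart (log2 fold change 1.33 ± 0.065 SE, adjusted p = 4.27e-07). Sox10 (ENSMUSG00000033006, chr15:79154908-79165240, minus strand), the HMG-box factor of the lineage, was at 91.1 and 95.7 CPM (P21), 44.4 and 44.2 CPM (adult) and 29.04 and 23.8 CPM (aged), again with no overlap (log2 fold change 1.08 ± 0.088 SE, adjusted p = 1.09e-05). Fyn (ENSMUSG00000019843, chr10:39368855-39565381, plus strand) was at 248 and 269 CPM (P21), 161 and 157 CPM (adult) and 143 and 138 CPM (aged), the smallest of the called differences (log2 fold change 0.703 ± 0.066 SE, adjusted p = 2.61e-05).

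The other 5 members, which include the precursor genes Pdgfra and Cspg4 as well as the later Bcas1 and Myrf, were not called. Gene spans are those of GENCODE on GRCm38. Pdgfra (ENSMUSG00000029231, chr5:75152292-75198215, plus strand) was at 51.7 and 53.2 CPM (P21), 41.8 and 40.1 CPM (adult) and 26.3 and 29.9 CPM (aged). Its P21 and adult sections did not overlap, yet the difference was below the fold required (log2 fold change 0.36 ± 0.074 SE, adjusted p = 0.00521). Cspg4 (ENSMUSG00000032911, chr9:56865033-56899870, plus strand) was at 21.9 and 20.6 CPM (P21), 18.9 and 17.7 CPM (adult) and 11.9 and 11.8 CPM (aged), and its P21 values were not called against adult (log2 fold change 0.22 ± 0.085 SE, adjusted p = 0.0895). Olig2 (ENSMUSG00000039830, chr16:91225457-91228677, plus strand), a basic helix-loop-helix factor, had the sparsest counts, with 478 to 1338 UMIs per section, and was at 14.1 and 11.5 CPM (P21), 11.3 and 11.02 CPM (adult) and 9.94 and 11.8 CPM (aged). The P21 and adult sections of Olig2 lay close together (log2 fold change 0.204 ± 0.12 SE, adjusted p = 0.273). Myrf (ENSMUSG00000036098, chr19:10208272-10240748, minus strand) was at 135 and 134 CPM (P21), 109.7 and 114 CPM (adult) and 86.02 and 72.3 CPM (aged) and stayed under the fold required (log2 fold change 0.27 ± 0.081 SE, adjusted p = 0.0328). Bcas1 (ENSMUSG00000013523, chr2:170346991-170427845, minus strand), which marks newly formed cells and stays on in myelin, was at 149 and 163 CPM (P21), 204 and 185 CPM (adult) and 196 and 151 CPM (aged). It was the one member whose whole-section level at P21 was under the adult level, without being called (log2 fold change -0.32 ± 0.11 SE, adjusted p = 0.0483).

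The sequences just before the start sites of Enpp6, called in every region at P21 in the main fit, and of Pdgfra, called in none there, are shown as examples. They come from a set of RefSeq promoter windows (GRCm38.p6) that held 6 of the 10 members (Pdgfra, Cspg4, Olig2, Enpp6, Fyn and Tspan2). Sox10, Gpr17, Bcas1 and Myrf, all on the minus strand, had no window in this set. The windows are the 250 bases ending at the start site on the plus strand, at chr8:46986637-46986886 for Enpp6 and chr5:75152001-75152250 for Pdgfra. Capitals mark a match to the SOX-type letters ACAAAG or ACAATG on either strand, which were searched because Sox10 is a member and belongs to that factor family.
Enpp6: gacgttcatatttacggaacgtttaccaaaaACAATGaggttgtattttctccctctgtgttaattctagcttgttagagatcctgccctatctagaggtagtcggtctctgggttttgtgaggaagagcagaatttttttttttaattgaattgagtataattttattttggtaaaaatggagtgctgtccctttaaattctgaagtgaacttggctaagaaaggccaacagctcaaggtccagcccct
Pdgfra: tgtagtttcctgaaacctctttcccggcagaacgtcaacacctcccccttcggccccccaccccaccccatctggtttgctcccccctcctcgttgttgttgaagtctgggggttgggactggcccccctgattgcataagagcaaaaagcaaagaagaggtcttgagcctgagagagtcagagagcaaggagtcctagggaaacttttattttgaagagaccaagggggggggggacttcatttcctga
The Enpp6 window held 1 match to ACAATG and the Pdgfra window held 0 matches. Among the 6 members with a window, matches did not follow the calls of the main fit: the window of Olig2, called in no region, held 1 match to ACAATG, and that of Fyn held 0. Gpr17 and Sox10, called in every region at P21, could not be looked at. The Cspg4 window held 0, and for Tspan2 the window of start site 2 held 1 match to ACAAAG and that of start site 1 held 0. Of all 32851 promoter windows of this length, 16.5% held ACAAAG and 10.7% held ACAATG, so a match is a description of these letters and no more. The GC content was 38.4% for Enpp6 and 54.4% for Pdgfra.

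Across regions, Gpr17, Enpp6, Sox10 and Tspan2 were higher at P21 than in adults in all 6. The share of all tested genes called higher was 4.39% in CTX, 5.63% in HP, 5.01% in TH, 2.87% in HY, 2.65% in STR and 5.68% in FT, beside 5 of 10 members in each region and 6 of 10 in STR. Of the 60 member and region pairs 31 were called, all higher at P21. With plain library sizes in place of TMM factors, the higher share among all calls in FT went from 58.4% to 45.2%, and the count of member and region pairs stayed at 31.

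**Figure D2:**
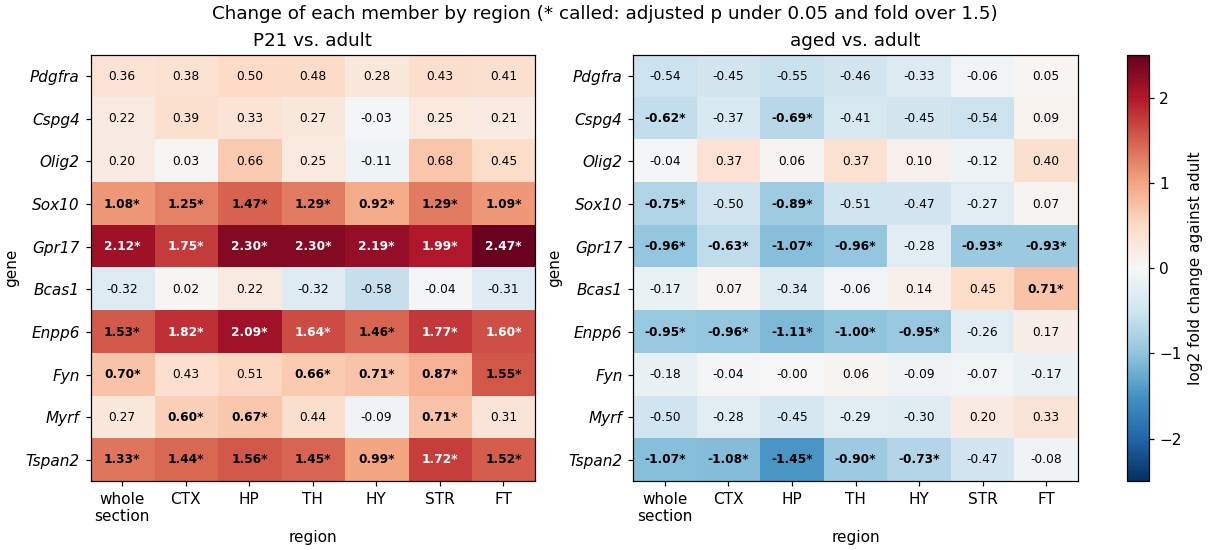
Log2 fold change of each member (rows) over the whole section and in 6 regions (columns), for P21 vs. adult on the left and aged vs. adult on the right, with 2 sections per age; stars mark called values. Both panels use the same adult sections. On the left the rows of Sox10, Gpr17, Enpp6 and Tspan2 are starred throughout; on the right stars are fewest in HY, STR and FT.

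**Figure D3:**
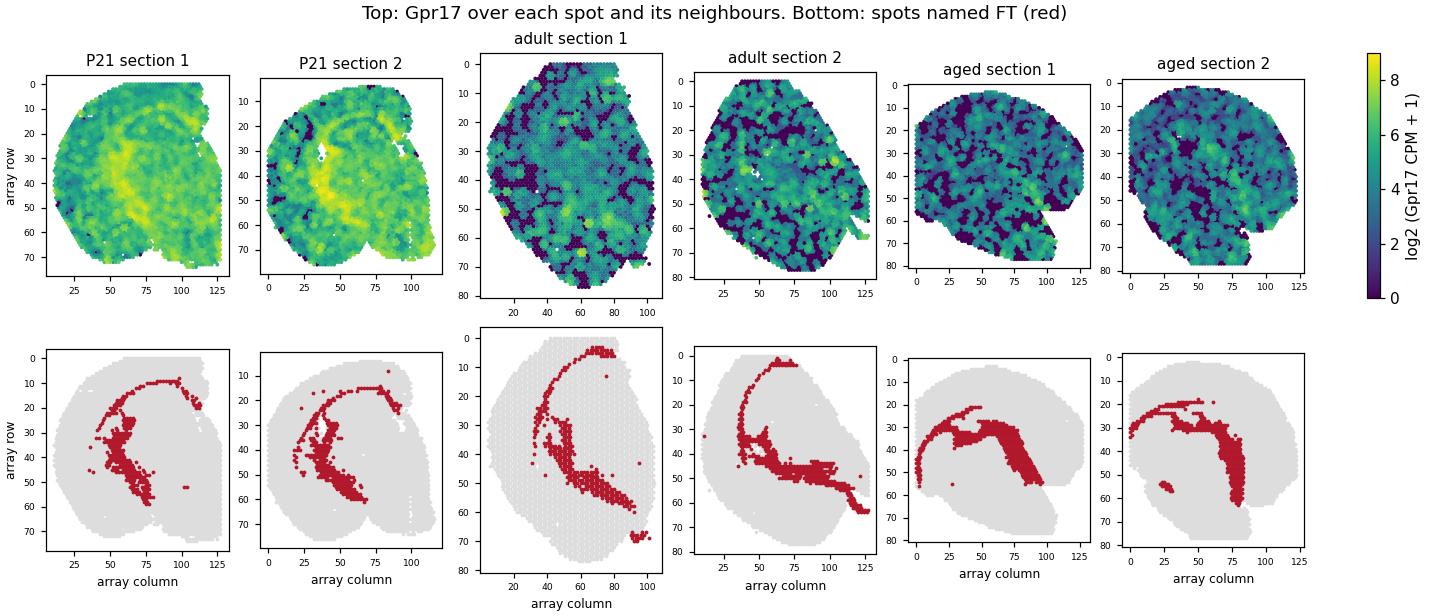
Top, log2 (CPM + 1) of Gpr17 summed over each spot and the spots touching it, at its place on the slide array (row and column); bottom, the same spots in grey with those named FT in red. The median local level inside FT against outside was 209.9 against 77.5 and 230.7 against 77.2 CPM in the P21 sections, 32.2 against 14.0 and 38.6 against 15.9 in adults, and 17.3 against 9.4 and 23.4 against 10.2 in aged mice.

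Gpr17 differed most in FT, the myelinated tracts, where it was at 240.4 and 273 CPM (P21), 42.8 and 49.5 CPM (adult) and 21.9 and 26.6 CPM (aged) (log2 fold change 2.47 ± 0.104 SE, adjusted p = 9.88e-13). The P21 values in FT were more than 4 times the highest adult value, and on the maps of Gpr17 by spot the FT spots had a higher median local level than the other spots in each of the 6 sections. Its smallest change was in CTX, at 52.6 and 50.97 CPM at P21 and 14.5 and 16.4 CPM in adults (log2 fold change 1.75 ± 0.101 SE, adjusted p = 3.62e-07). Enpp6 showed the widest gap in HP, with 41.96 and 39.3 CPM at P21 and 11.3 and 7.99 CPM in adults (log2 fold change 2.09 ± 0.18 SE, adjusted p = 2.06e-05). Its log2 fold changes elsewhere ran from 1.46 in HY to 1.82 in CTX. Tspan2 in FT was at 2432 and 2777 CPM (P21), 930.0 and 888 CPM (adult) and 883 and 832 CPM (aged), so each P21 section exceeded both adult sections by over 2 times (log2 fold change 1.52 ± 0.093 SE, adjusted p = 1.88e-10). Sox10 ranged from a log2 fold change of 0.92 in HY to 1.47 in HP. In the test of region-by-age terms described below, Sox10 (adjusted p = 0.0564), Gpr17 (adjusted p = 0.0639) and Enpp6 (adjusted p = 0.519) did not pass. For these genes the order of the regions is a description.

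Several P21 calls in HY were lost when 1 section was left out. Such a fit keeps 1 section of that age, so a lost call cannot tell reliance on the section left out from having fewer sections. There Sox10 (without P21 replicate 1, log2 fold change 0.99, adjusted p = 0.0555; without P21 replicate 2, 0.86, adjusted p = 0.0593), Fyn (without P21 replicate 1, 0.77, adjusted p = 0.0629; without P21 replicate 2, 0.64, adjusted p = 0.075) and Enpp6 (without P21 replicate 1, 1.43, adjusted p = 0.078; without P21 replicate 2, 1.49, adjusted p = 0.0572) each lost the call when either P21 section was left out. Tspan2 in HY lost it without P21 replicate 1 (0.86, adjusted p = 0.0577). Bcas1 in HY went the other way, at 126 and 138 CPM (P21), 221 and 172 CPM (adult) and 206 and 226 CPM (aged), just under the fold required (log2 fold change -0.58 ± 0.12 SE, adjusted p = 0.0267). Without adult replicate 2 it was called lower at P21 (-0.75, adjusted p = 0.0197).

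Fyn, the kinase shared with neurons, differed most between P21 and adult in FT. It was also called higher at P21 in STR (log2 fold change 0.87), HY (0.71) and TH (0.66). In HP (0.51) and CTX it was not called. In FT it was at 411 and 503 CPM (P21), 162 and 148 CPM (adult) and 138 and 138 CPM (aged), with both P21 sections far above all the others (log2 fold change 1.55 ± 0.097 SE, adjusted p = 2.19e-10). In CTX it was at 188 and 207 CPM (P21), 145 and 148 CPM (adult) and 147 and 139 CPM (aged), a change under the fold required (log2 fold change 0.43 ± 0.078 SE, adjusted p = 0.00267). The region-by-age terms, which ask whether the P21 vs. adult difference is the same in the 6 regions with each section as a block, gave an adjusted p of 2.20e-07 for Fyn. They passed for 4 members in all, the others being Bcas1 (adjusted p = 0.0191), Myrf (adjusted p = 0.02) and Tspan2 (adjusted p = 0.0259), beside 9.53% of all genes tested. Of these 4, Fyn passed in every alternative run and the other 3 did not, and without P21 replicate 1, adult replicate 1 or adult replicate 2 Fyn alone passed. Without P21 replicate 2, Fyn and Sox10 passed. Without either aged section 6 members did, Sox10 and Gpr17 being added.

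Myrf, the activator of myelin genes, was called higher at P21 in CTX (log2 fold change 0.598 ± 0.092 SE, adjusted p = 8.15e-04), HP (log2 fold change 0.67 ± 0.15 SE, adjusted p = 0.0112) and STR (log2 fold change 0.71 ± 0.13 SE, adjusted p = 0.00248) and in no other region. In CTX it was at 65.5 and 60.03 CPM (P21), 44.2 and 38.9 CPM (adult) and 34.8 and 33.8 CPM (aged), and in HY, where P21 and adult overlapped, at 113 and 98.5 CPM (P21), 121 and 105 CPM (adult) and 89.2 and 94.3 CPM (aged). Each of these 3 calls was lost without some section, and each also under another clustering or depth, with log2 fold changes under the fold required. In CTX it was 0.44 with each section clustered alone, 0.58 with the lineage genes in the clustering and 0.56 with 20 principal components. In HP it was 0.39 with each section clustered alone, and in STR 0.57 after thinning to equal depth. The CTX call was lost without P21 replicate 1 (0.53, adjusted p = 0.016) and without adult replicate 2 (0.51, adjusted p = 0.0159). The HP call was lost when any of the 4 sections was left out (adjusted p 0.06 to 0.161), and the STR call without P21 replicate 1 (0.44, adjusted p = 0.235) or adult replicate 2 (0.63, adjusted p = 0.0557). Pdgfra was called in no region, with log2 fold changes of 0.28 to 0.499, and neither was Cspg4 (-0.032 to 0.39). In other runs Pdgfra was called higher at P21, in CTX with each section clustered alone (0.61, adjusted p = 0.00453) and in FT with interior spots only (0.59, adjusted p = 0.0134). Olig2 was not called in any region, HP included (log2 fold change 0.66, adjusted p = 0.103). In HP it passed once either aged section was left out of the shared fit (0.68 without aged replicate 1 and 0.68 without aged replicate 2). With only the 2 ages compared it passed in HP too (0.68, adjusted p = 0.0174), and in FT with interior spots only (0.86, adjusted p = 0.00321).

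In aged vs. adult, which shares the adult sections with P21 vs. adult, whole-section levels of 5 members were lower with age and 0 were higher. The 5 were Tspan2, Gpr17, Enpp6, Sox10 and Cspg4, beside 4.68% of all tested genes called lower. Of the 18104 genes tested, 4301 were called higher and 847 lower, so 83.5% of the calls in this comparison were higher. The median log2 fold change of the members was -0.58 and that of all genes 0.041. Tspan2 had the largest change (log2 fold change -1.07 ± 0.065 SE, adjusted p = 1.75e-06), followed by Gpr17 (log2 fold change -0.96 ± 0.079 SE, adjusted p = 8.57e-06) and Enpp6 (log2 fold change -0.95 ± 0.082 SE, adjusted p = 1.10e-05). Sox10 (log2 fold change -0.75 ± 0.089 SE, adjusted p = 7.47e-05) and the NG2 proteoglycan gene Cspg4 (log2 fold change -0.62 ± 0.086 SE, adjusted p = 1.74e-04) were lower as well, and for all 5 the highest aged section was below the lowest adult section. Pdgfra was lower by less than the fold required (log2 fold change -0.54 ± 0.074 SE, adjusted p = 1.67e-04), and it was called without adult replicate 2 (-0.59, adjusted p = 7.64e-04) and without aged replicate 2 (-0.63, adjusted p = 9.45e-05). Myrf likewise (log2 fold change -0.496 ± 0.081 SE, adjusted p = 4.60e-04) was called without aged replicate 1 (-0.62, adjusted p = 4.12e-05). Bcas1, Fyn and Olig2 were not called, with log2 fold changes of -0.17, -0.18 and -0.040.

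These whole-section values depended on how regions and libraries were weighed. The share of all genes given above belongs to the main fit and cannot be set beside the counts of members in this paragraph. When the 6 regions were given equal weight in each section, 2 members stayed called, Gpr17 (-0.92) and Tspan2 (-0.603), whereas Enpp6 (-0.35), Sox10 (-0.35) and Cspg4 (-0.46) fell short of the fold. Plain library sizes moved the median of all genes to a log2 fold change of 0.15, and then Cspg4 (-0.51) was no longer called and Gpr17 (-0.86), Enpp6 (-0.85), Sox10 (-0.64) and Tspan2 (-0.97) still were.

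Within regions, Tspan2, Enpp6 and Gpr17 were each called lower in aged mice in 4 of the 5 grey matter regions, whereas in FT Gpr17 was called lower and Bcas1 higher. The share of all tested genes called lower was 4.53% in CTX (3 of 10 members), 6.19% in HP (5 members), 7.41% in TH (3 members), 4.72% in HY (2 members), 6.04% in STR (1 member) and 12.5% in FT (1 member). In FT 18.1% of genes were called higher, among them 1 member. In all, 16 of the 60 pairs were called.

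HP held the most calls. Tspan2 there was at 556 and 493 CPM (P21), 186 and 170.3 CPM (adult) and 71.7 and 58.96 CPM (aged) (log2 fold change -1.45 ± 0.11 SE, adjusted p = 1.70e-05), so that both aged sections lay well below the lowest adult value. Gpr17 in HP was at 74.8 and 69.9 CPM (P21), 15.9 and 13.6 CPM (adult) and 8.99 and 5.37 CPM (aged) (log2 fold change -1.07 ± 0.21 SE, adjusted p = 0.0034), with the aged sections below the adult ones. Enpp6 in HP was at 41.96 and 39.3 CPM (P21), 11.3 and 7.99 CPM (adult) and 5.02 and 3.93 CPM (aged) (log2 fold change -1.11 ± 0.23 SE, adjusted p = 0.00396), and the call was lost without adult replicate 1 (-0.86, adjusted p = 0.0627). Sox10 in HP was at 66.8 and 65.8 CPM (P21), 24.8 and 23.1 CPM (adult) and 14.01 and 11.98 CPM (aged) (log2 fold change -0.89 ± 0.14 SE, adjusted p = 7.98e-04). Cspg4 in HP was at 17.6 and 13.03 CPM (P21), 14.3 and 10.9 CPM (adult) and 8.99 and 6.81 CPM (aged), a narrow call (log2 fold change -0.69 ± 0.22 SE, adjusted p = 0.0379) that did not survive leaving out P21 replicate 1 (-0.69, adjusted p = 0.0519), adult replicate 1 (-0.497, adjusted p = 0.276), adult replicate 2 (-0.87, adjusted p = 0.0614) or aged replicate 2 (-0.48, adjusted p = 0.0987). Without aged replicate 1, Pdgfra (-0.65, adjusted p = 3.23e-04), Myrf (-0.76, adjusted p = 3.43e-07) and Bcas1 (-0.59, adjusted p = 2.38e-06) were called lower in HP too.

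In CTX, Tspan2 was at 402 and 359 CPM (P21), 143 and 137 CPM (adult) and 68.1 and 64.7 CPM (aged) (log2 fold change -1.08 ± 0.082 SE, adjusted p = 2.10e-06). Enpp6 in CTX was at 26.2 and 29.4 CPM (P21), 7.67 and 8.01 CPM (adult) and 4.31 and 3.78 CPM (aged), the aged sections again under the adult ones (log2 fold change -0.96 ± 0.14 SE, adjusted p = 2.18e-04). Gpr17 in CTX was at 14.5 and 16.4 CPM in adults and 9.84 and 10.1 CPM in aged mice (log2 fold change -0.63 ± 0.11 SE, adjusted p = 5.70e-04). This call was lost without adult replicate 2 (-0.54), with each section clustered alone (-0.52) and with 20 principal components (-0.55), each time under the fold required. Sox10 in CTX was not called (log2 fold change -0.495 ± 0.105 SE, adjusted p = 0.00252). It was called without aged replicate 1 (-0.602) and with each section clustered alone (-0.617, adjusted p = 0.00142). TH repeated the same 3 names: Tspan2 (log2 fold change -0.905 ± 0.081 SE, adjusted p = 2.81e-05), Enpp6 (log2 fold change -1.004 ± 0.16 SE, adjusted p = 8.25e-04) and Gpr17 (log2 fold change -0.96 ± 0.17 SE, adjusted p = 0.00167). Sox10 joined them in TH without aged replicate 1 (-0.68) and after thinning to equal depth (-0.606, adjusted p = 0.00444). In HY, Tspan2 (log2 fold change -0.73 ± 0.11 SE, adjusted p = 0.00292) and Enpp6 (log2 fold change -0.95 ± 0.197 SE, adjusted p = 0.00975) were lower, the latter not without adult replicate 2 (-0.91, adjusted p = 0.0575), and when each section was clustered alone neither was called (Tspan2 0.11, adjusted p = 0.837; Enpp6 -0.21, adjusted p = 0.588). With each section clustered alone, HY of adult section 1 held 84 spots, against 370 in the main clustering. STR had 1 call, Gpr17 (log2 fold change -0.93 ± 0.19 SE, adjusted p = 0.00128), with 23.6 and 23.4 CPM in adults and 12.05 and 12.5 CPM in aged mice. Without adult replicate 2, Tspan2 in STR was called lower (-0.62, adjusted p = 0.00947), and without adult replicate 1, Bcas1 in STR was called higher (0.66, adjusted p = 0.00317).

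In FT, Gpr17 stayed lower in aged mice and Bcas1 was higher. Gpr17 fell from 42.8 and 49.5 CPM in the adult sections to 21.9 and 26.6 CPM in the aged sections (log2 fold change -0.93 ± 0.13 SE, adjusted p = 5.99e-06). Bcas1 went from 589.6 and 530.0 CPM to 1073 and 766 CPM (log2 fold change 0.71 ± 0.13 SE, adjusted p = 7.99e-05), and without aged replicate 1 it missed the fold (0.44, adjusted p = 0.00727). Enpp6 in FT was at 219 and 274 CPM (P21), 74.4 and 86.1 CPM (adult) and 86.5 and 94.2 CPM (aged), with both aged sections just above the adult ones (log2 fold change 0.17 ± 0.11 SE, adjusted p = 0.213). Tspan2 (log2 fold change -0.085 ± 0.092 SE, adjusted p = 0.464), Sox10 (log2 fold change 0.074 ± 0.097 SE, adjusted p = 0.553) and Pdgfra (log2 fold change 0.049 ± 0.11 SE, adjusted p = 0.738) were not called in FT. Olig2 (log2 fold change 0.399 ± 0.13 SE, adjusted p = 0.0145) and Myrf (log2 fold change 0.33 ± 0.101 SE, adjusted p = 0.00975) lay above the adult level without reaching the fold.

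Because most aged FT spots belonged to the cluster led by Klk6, C4b and C3, the FT values were also taken within each cluster, a choice made after the data had been seen. Gpr17 was lower in aged mice in both, by a log2 fold change of -0.94 in that cluster (adjusted p = 1.16e-04) and -1.02 in the one led by Thbs4, Opalin, Enpp6 and Mag (adjusted p = 5.49e-05). Bcas1 was called higher in the first (0.76, adjusted p = 5.84e-04) and missed the fold in the second (0.49, adjusted p = 1.48e-04). Tspan2 was at 2739 and 3102 CPM (P21), 981 and 892 CPM (adult) and 979 and 898 CPM (aged) in the first cluster and at 2099 and 2294 CPM (P21), 932 and 919.5 CPM (adult) and 694 and 712 CPM (aged) in the second, here without TMM scaling. Its aged change was 0.077 (adjusted p = 0.628) in the first and -0.39 (adjusted p = 6.46e-04) in the second, and neither reached the fold. In P21 vs. adult, Olig2 was called in the first cluster (0.76, adjusted p = 0.00518) and not in the second (0.16, adjusted p = 0.568).

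Markers of other cells in FT were set beside these values, where 18.1% of all genes tested were called higher in aged mice and 12.5% lower. Summed over the marker lists, microglia genes were at 485 and 552 CPM in the adult FT and 1424 and 1429 CPM in the aged FT, with 6 of 7 called higher. Neuron genes were at 5096 and 4763 CPM and 2565 and 2486 CPM, with 5 of 7 called lower, and astrocyte genes at 4078 and 4059 CPM and 7009 and 7010.2 CPM, with 2 of 7 called higher. T cell genes, 6 in the list and 5 tested in FT, were at 4.25 and 5.798 CPM and 20.9 and 37.3 CPM, with 5 called higher. Endothelial genes were at 239 and 237 CPM and 279 and 260.4 CPM, with 1 of 5 higher and 2 lower, and immature neuron genes at 280.4 and 286 CPM and 185 and 197 CPM, with 1 of 5 higher and 2 lower. No gene of these lists was under 1 CPM in FT in every section. Their part in the FT values of the members was not tested.

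The aged vs. adult difference varied with region for 7 of the 10 members, beside 39.8% of all genes tested. The adjusted p of the region-by-age terms was 1.78e-06 for Tspan2, 1.56e-04 for Sox10, 2.49e-04 for Bcas1, 4.41e-04 for Enpp6, 0.00347 for Myrf, 0.0124 for Pdgfra and 0.033 for Gpr17. Cspg4 (0.131), Fyn (0.223) and Olig2 (0.5) did not pass. With FT left out, 2 members still passed, Tspan2 (adjusted p = 7.61e-04) and Bcas1 (adjusted p = 0.015), and the other 5 did not. Without adult replicate 1, and also without adult replicate 2, 4 members passed and Pdgfra, Myrf and Gpr17 did not. The section block takes up any slide effect that acts alike on a gene in the whole section, not one that differs by region.

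Within each section, 9 of the 10 members were higher in FT than in the mean of the other 5 regions in all 6 sections. This is a description with no test, since the regions were drawn from the same spots, although the members took no part in the clustering. Values are log2 ratios of CPM + 1. Enpp6 had the highest, at 2.04 and 2.46 (P21), 2.23 and 2.49 (adult) and 3.15 and 3.28 (aged). Tspan2 was at 1.79 and 2.16 (P21), 1.93 and 1.95 (adult) and 2.75 and 2.61 (aged), Myrf at 1.76 and 2.15 (P21), 2.06 and 2.203 (adult) and 2.73 and 2.52 (aged), Bcas1 at 1.595 and 1.902 (P21), 1.88 and 2.004 (adult) and 2.701 and 2.36 (aged) and Sox10 at 1.69 and 1.93 (P21), 1.89 and 2.08 (adult) and 2.52 and 2.49 (aged). For 8 of the 10 members, all but Gpr17 and Fyn, both aged sections exceeded both adult sections. Gpr17 went in the other order, at 1.42 and 1.62 (P21), 1.17 and 1.26 (adult) and 0.76 and 1.16 (aged). Pdgfra was at 0.59 and 0.57 (P21), 0.66 and 0.64 (adult) and 0.92 and 1.09 (aged) and Cspg4 at 0.51 and 0.44 (P21), 0.44 and 0.65 (adult) and 0.77 and 1.31 (aged). Olig2 was at 1.41 and 1.67 (P21), 1.32 and 1.48 (adult) and 1.63 and 1.597 (aged). Fyn was the exception, at 0.76 and 0.94 (P21), 0.051 and -0.028 (adult) and -0.15 and -0.13 (aged), above 0 at P21 in both sections and near 0 or below afterwards.

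**Figure D4:**
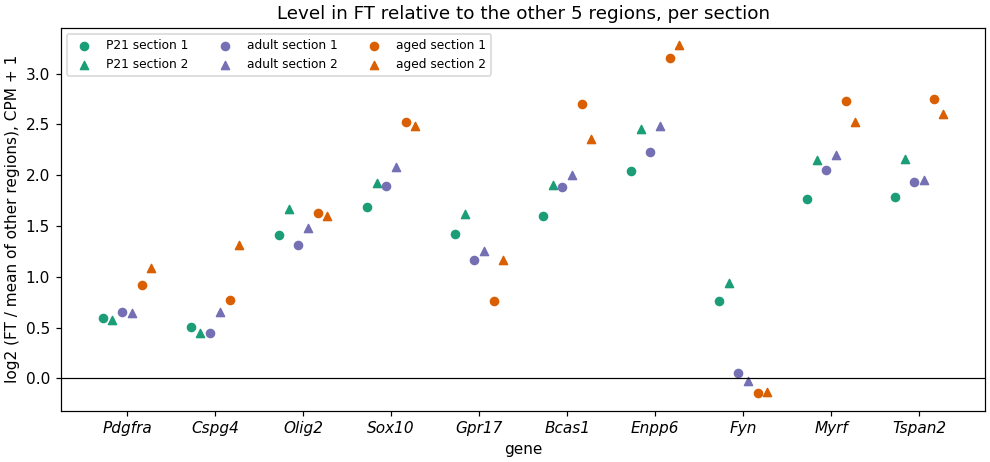
Log2 ratio of the level in FT to the mean of the other 5 regions (CPM + 1, vertical axis) for each member (horizontal axis) in the 6 sections, colored by age, with circles for section 1 and triangles for section 2. Points lie above 0 in every section except for Fyn, which is above 0 at P21 and near or below 0 in adult and aged sections.

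A graded view needed no named regions. The spots of each section were ranked by the summed share of 18 structural myelin genes, none of them a member, and split into 10 bins of equal size. From bin 1 to bin 10 this sum itself ran from 7273 to 85440 and 6232 to 103300 CPM (P21). In adults it ran from 2469 to 52992 and 1893 to 52626 CPM, and in aged sections from 1067 to 65582 and 1042 to 62508 CPM. Relative to bin 1, the ranking genes thus rose most steeply in the aged sections. The log2 ratio of the most to the least myelinated bin (CPM + 1) was 2.71 and 3.25 (P21), 4.102 and 4.24 (adult) and 5.505 and 5.296 (aged) for Bcas1. It was 3.26 and 3.76 (P21), 3.97 and 4.100 (adult) and 4.88 and 5.03 (aged) for Tspan2 and 3.37 and 3.86 (P21), 3.91 and 4.58 (adult) and 5.07 and 5.15 (aged) for Enpp6. For Bcas1, Tspan2 and Enpp6 the ratio was therefore higher in both aged sections than in any other section. The same held for Sox10 (4.28 and 4.21 in the aged sections) and Myrf (5.22 and 5.17). Gpr17 had 2.29 and 2.32 (P21), 2.36 and 2.15 (adult) and 1.12 and 1.36 (aged), its aged sections the flattest, and Pdgfra had 0.86 and 1.26 (P21), 1.398 and 1.29 (adult) and 1.35 and 1.31 (aged). Fyn had 1.01 and 1.06 (P21), 0.078 and -0.14 (adult) and -0.18 and -0.302 (aged). The bins share a library and its depth, and the ratios are descriptions.

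**Figure D5:**
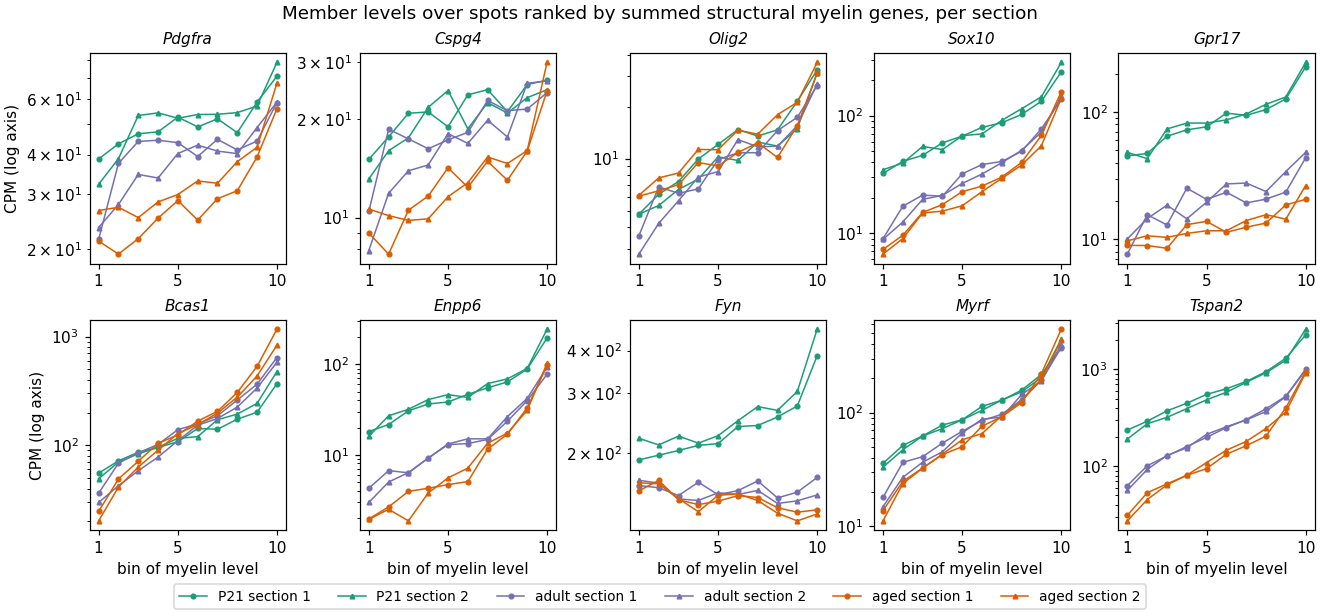
Level of each member (CPM, log axis) over 10 bins of spots ranked within each section by summed structural myelin genes (bin 1 lowest), with 1 line per section, colored by age. Tspan2, Enpp6 and Gpr17 lines of P21 sections lie above the adult and aged ones along the axis, while the Bcas1 lines cross, with the aged sections highest in bin 10.

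Within a region the members differed among sub-clusters. In the HP cluster led by Fibcd1, Spink8 and Gpr161, which held 16 to 28 spots per section, Gpr17 was at 45.8 and 16.9 CPM (P21), 12.8 and 5.497 CPM (adult) and 3.58 and 2.43 CPM (aged). In the largest HP cluster it was at 101 and 97.9 CPM (P21), 25.9 and 25.04 CPM (adult) and 13.8 and 13.4 CPM (aged). Tspan2 in the same pair was at 318 and 212 CPM (P21), 85.8 and 82.5 CPM (adult) and 22.6 and 35.3 CPM (aged) and at 742 and 701 CPM (P21), 314 and 303 CPM (adult) and 144 and 144 CPM (aged). In CTX, the cluster with Lamp5 among its leading genes held Tspan2 at 321 and 318 CPM (P21), 103 and 92.1 CPM (adult) and 45 and 47.02 CPM (aged), and the cluster with Fezf2 and Ccn2 among its leading genes held it at 460.1 and 442 CPM (P21), 186 and 175 CPM (adult) and 86.2 and 87.5 CPM (aged), so the latter was higher in each of the 6 sections. These cluster values are CPM without TMM scaling and were not tested.

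The balance between stages was followed as the log2 ratio of a later gene to Pdgfra within a section. Each gene has its own probes, so the size of a ratio is not read, and since the aged sections had another probe design, a difference between adult and aged ratios cannot be told apart from one between probes. For Gpr17 over Pdgfra the whole-section ratio was 0.92 and 0.92 (P21), -0.98 and -0.71 (adult) and -1.17 and -1.36 (aged). In FT it was 1.71 and 1.81 (P21), -0.43 and -0.17 (adult) and -1.27 and -1.28 (aged), and the 3 ages did not overlap. For Enpp6 over Pdgfra it was 0.26 and 0.33 (P21), -0.99 and -0.76 (adult) and -1.13 and -1.44 (aged) over whole sections, and in FT 1.58 and 1.82 (P21), 0.37 and 0.63 (adult) and 0.72 and 0.55 (aged), where adult and aged sections overlapped. Tspan2 over Pdgfra was 3.97 and 3.87 (P21), 2.91 and 2.98 (adult) and 2.56 and 2.27 (aged). Myrf over Pdgfra was 1.39 and 1.33 (P21), 1.39 and 1.501 (adult) and 1.71 and 1.27 (aged), with the ages overlapping. The ratio of Bcas1 to Enpp6, both genes of newly formed cells, was 1.27 and 1.28 (P21), 3.28 and 2.97 (adult) and 4.03 and 3.77 (aged), and the ages did not overlap.

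Genes whose levels went most alike with a member were sought among 11514 genes of at least 5 CPM on average, by Pearson's r of log2 (CPM + 1) over the 36 section and region sums. These sums share libraries and base composition, and r is a description. Among the closest to Tspan2 were Mag (r = 0.994), Cnp (r = 0.993), Ugt8a (r = 0.993) and Mog (r = 0.988), which are genes of myelin. The 5 closest to Gpr17 were Inava (r = 0.967), Bmp4 (r = 0.958), Kif19a (r = 0.957), Prom1 (r = 0.945) and Dhcr7 (r = 0.944). Among the closest to Pdgfra were Ankrd44 (r = 0.947), Cc2d1b (r = 0.936), Hhip (r = 0.926) and Cnp (r = 0.923).

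Other genes of the lineage were counted from fixed lists, again over whole sections. Of the 18104 genes tested there, 5.69% were called higher at P21 and 429 genes lower. In aged vs. adult 4.68% were called lower and 4301 genes higher. Of 13 other precursor genes, 4 were called higher at P21 and 0 lower (median log2 fold change 0.49), with the chondroitin sulfate proteoglycan gene Vcan (log2 fold change 0.804, adjusted p = 2.01e-05), Neu4 (log2 fold change 1.097, adjusted p = 2.19e-05) and Cacng4 (log2 fold change 0.92, adjusted p = 2.90e-05) leading. In aged vs. adult 3 were lower and 0 higher (median -0.26), namely Cspg5 (log2 fold change -0.78, adjusted p = 2.01e-05), the transcription factor gene Olig1 (log2 fold change -0.699, adjusted p = 3.48e-05) and Neu4 (log2 fold change -0.62, adjusted p = 4.50e-04). Of 12 other committed and newly formed stage genes, 11 were higher at P21 and 0 lower (median 1.103), led by the deacetylase gene Sirt2 (log2 fold change 1.48, adjusted p = 4.96e-07), Kif19a (log2 fold change 2.69, adjusted p = 5.99e-07) and Mpzl1 (log2 fold change 1.09, adjusted p = 2.52e-06). In FT 12 were higher at P21 (median 1.84), beside 5.68% of all genes tested there. In aged vs. adult 5 were lower and 0 higher (median -0.46), led by Tmem163 (log2 fold change -0.96, adjusted p = 5.35e-06), Mpzl1 (log2 fold change -0.79, adjusted p = 1.86e-05) and Frmd4a (log2 fold change -0.700, adjusted p = 5.64e-05).

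The next lists stand beside the same whole-section shares, 5.69% of all genes called higher at P21 and 4.68% lower in aged mice. In the other directions, 429 of the 18104 genes were called lower at P21 and 4301 higher in aged mice. Among 8 differentiation factors, 2 were higher at P21, Sox8 (log2 fold change 0.85, adjusted p = 7.36e-06) and Zfp488 (log2 fold change 1.76, adjusted p = 3.31e-05), and 3 were lower in aged mice, Gpr37 (log2 fold change -0.99, adjusted p = 3.19e-06), Zeb2 (log2 fold change -0.600, adjusted p = 2.77e-05) and Nkx2-2 (log2 fold change -0.72, adjusted p = 0.00119). None of 7 differentiation inhibitors was called in either whole-section comparison by edgeR, with medians of 0.016 and -0.22, and 3 and 5 of the 7 had an unadjusted p under 0.05. The share of all genes at that unadjusted level is not given, so the 3 and 5 are not read further. Of 10 growth factors and receptors, 2 were higher at P21, the neuregulin receptor gene Erbb3 (log2 fold change 0.88, adjusted p = 7.16e-05) and Igf1 (log2 fold change 0.605, adjusted p = 4.46e-04), and 1 was lower, Fgfr2 (log2 fold change -0.81, adjusted p = 3.42e-05). In aged mice Igf1 was higher (log2 fold change 0.61, adjusted p = 1.74e-04) and Fgfr2 lower (-0.75, adjusted p = 3.38e-05). Of 7 cell cycle genes tested, 4 were higher at P21, led by Mki67 (log2 fold change 1.19, adjusted p = 7.89e-04), Cdk1 (log2 fold change 1.25, adjusted p = 0.00299) and Top2a (log2 fold change 1.09, adjusted p = 0.00838), and 2 were lower in aged mice, Mki67 (log2 fold change -1.89, adjusted p = 5.18e-05) and Top2a (log2 fold change -1.09, adjusted p = 0.00517). Mki67 was at 3.32 and 3.18 CPM (P21), 1.44 and 1.41 CPM (adult) and 0.401 and 0.369 CPM (aged).

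Of 18 structural myelin and mature oligodendrocyte genes, 10 were higher and 3 lower at P21 over whole sections (median 0.76), among them the claudin gene Cldn11 (log2 fold change 1.698, adjusted p = 2.20e-07) and Mag (log2 fold change 1.19, adjusted p = 4.96e-07). In aged vs. adult 11 were lower and 2 higher (median -0.69), led by Opalin (log2 fold change -2.92, adjusted p = 1.77e-08), Mag (log2 fold change -1.09, adjusted p = 1.06e-06) and the connexin gene Gjb1 (log2 fold change -0.97, adjusted p = 4.39e-06). Of all genes tested over whole sections, 5.69% were called higher at P21 and 4.68% lower in aged mice. Calls in the other directions numbered 429 of 18104 genes lower at P21 and 4301 higher in aged mice. In the aged FT 4 of the 18 were higher and 1 lower (median 0.26), beside 18.1% of all genes tested there called higher and 12.5% called lower, so the share called higher was near that of all genes.

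Pdgfra is also expressed by meningeal fibroblasts and Cspg4 by pericytes, so markers of both were set beside them. Over whole sections, 5.69% of all genes tested were called higher at P21 and 4.68% lower in aged mice. The 8 fibroblast markers summed to 203 and 181 CPM at P21, 148 and 110.3 CPM in adults and 89.4 and 77.7 CPM in aged sections, with 2 called higher and 1 lower at P21 and 6 lower in aged mice. Their leading genes were Col1a2 (log2 fold change -1.02, adjusted p = 2.52e-05), Col1a1 (log2 fold change -1.45, adjusted p = 6.88e-05) and Slc22a6 (log2 fold change -1.31, adjusted p = 8.38e-05). The 8 pericyte markers summed to 159.7 and 159.8 CPM, 159 and 148 CPM and 115 and 115 CPM, with 0 called higher and 0 lower at P21 and 4 lower in aged mice, led by Atp13a5 (log2 fold change -0.79, adjusted p = 1.97e-05), Vtn (log2 fold change -0.91, adjusted p = 2.20e-05) and Pdgfrb (log2 fold change -0.81, adjusted p = 1.43e-04). No marker of either list was under 1 CPM in every section, and both summed levels were lower in the aged sections, as the levels of Cspg4 and Pdgfra were. Their part in those values was not tested.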

How the data were processed

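Visium libraries for formalin-fixed tissue were made from 6 brain sections. The deposited values are raw UMI counts per gene and spot, which the authors produced with Space Ranger on mm10, with no normalization. The file headers give version 2.0.0 for P21 and adult and 3.1.1 for aged sections, and the submitters' processing notes give 2.1.0 and list Seurat 5.1.0. Spots under 250 genes or 500 UMIs were dropped, leaving 20336. Spots were clustered in Python 3.11.15 (scikit-learn 1.9.0, leidenalg 0.10.2) on 3000 variable genes and 10 principal components with 85 lineage genes kept out, and clusters were named from marker panels. UMIs were summed per section, or per section and region, and fitted with edgeR 4.0.16 in R 4.3.3 (TMM, filterByExpr, quasi-likelihood test, age as the only term), and a second model held region-by-age terms with section as a block. The tests were checked on simulated counts. DESeq2 1.42.0, other normalizations, filters, call rules, clusterings, thinning to equal depth and leaving out each section were tried. Named genes were the 10 members, up to 3 called genes of each list with the smallest adjusted p, and the 5 genes most like Pdgfra, Gpr17 and Tspan2, and some results under this rule are not reported here. The members and lists were chosen with earlier results of these data known.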

Additional observations from a re-analysis of the deposited data

Results flagged for a closer look

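The age difference of these members was not the same in the 6 regions, by the test of the region-by-age terms with section as a block (edgeR, adjusted over all genes). In P21 vs. adult the adjusted p was 2.2e-07 for Fyn, 0.0191 for Bcas1, 0.02 for Myrf and 0.0259 for Tspan2. Of all genes tested 9.53% passed, and of these members only Fyn passed in every alternative run. In aged vs. adult the adjusted p was 1.78e-06 for Tspan2, 0.000156 for Sox10, 0.000249 for Bcas1, 0.000441 for Enpp6, 0.00347 for Myrf, 0.0124 for Pdgfra and 0.033 for Gpr17. Here 39.8% of all genes tested passed. With FT left out, only Tspan2 and Bcas1 of these members passed. The FT cluster led by Klk6, C4b and C3 held 39.9% and 50.3% of the FT spots in adult sections and 73.1% and 79.7% in aged sections, so FT was not the same mix of spots at these ages. Groups of 2 sections are too small for the test of a single outlying sample, which was not run.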

How the results depend on the processing

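With no demand on the fold, 8 members passed over whole sections at P21 and 8 with age, and 32 member and region pairs passed in aged vs. adult. The shares of all genes given above belong to the main fit and, for calls, to the rule with the fold. They cannot be set beside these counts or beside those of the other runs in this paragraph. Against a fold of 1.5 itself (glmTreat), 3 members passed in aged vs. adult over whole sections and 4 pairs over regions, and with equal weight per region 2 members did. The P21 region-by-age count went from 4 to 1 with each section clustered alone, to 2 with the lineage genes in the clustering and to 2 with interior spots only, and the aged count from 7 to 2 without FT and to 4 with each section clustered alone. Leaving out 1 section at a time gave 1 to 6 members for P21 and 4 to 8 for aged in the region-by-age test, 5 and 5 to 6 members over whole sections, and 24 to 32 and 14 to 20 pairs over regions. One called value changed sign, Tspan2 in HY in aged vs. adult, at 0.113 with each section clustered alone against -0.73. In that run HY of adult section 1 held 84 spots, against 370 in the main clustering. The cause of the change in sign was not tested. The count of 9 members higher in FT held in every alternative run. With the replicate number as a block the counts were 5 and 5 members and 31 and 16 pairs, as without the replicate block. Deviations of same-numbered sections correlated at 0.11 (P21 and adult), -0.11 (P21 and aged) and -0.33 (adult and aged) over 14477 genes, and crossing the aged numbers, added after seeing the data, left the counts at 5, 5, 31 and 16. There were 2 sections per age, and the sparsest whole-section value rested on 478 UMIs (Olig2, P21 section 2). Values of single regions and clusters are sums over part of a section and rest on fewer UMIs.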

Other observations

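Outside the 6 regions, members were also measured in smaller zones, given as values without a test and without TMM scaling. In spots named meninges, Pdgfra was at 102 and 76.96 CPM (P21), 95.8 and 104 CPM (adult) and 44.9 and 72.4 CPM (aged). In the reticular thalamic zone (RT), Gpr17 was at 151 and 136 CPM (P21), 20.5 and 21.6 CPM (adult) and 11.7 and 11.1 CPM (aged), and the 3 ages did not overlap. Tspan2 in RT was at 1466 and 1668 CPM (P21), 518 and 473 CPM (adult) and 239.5 and 279 CPM (aged). Spots named ventricular system (VS) numbered 24 and 22 (P21), 32 and 13 (adult) and 67 and 51 (aged), so some of these values rest on few spots. In VS, Bcas1 was at 173 and 101 CPM (P21), 226 and 259.9 CPM (adult) and 429.6 and 398 CPM (aged), so both aged sections lay above the others. Gpr17 in VS was at 85.6 and 77.3 CPM (P21), 14.9 and 24.3 CPM (adult) and 4.86 and 5.75 CPM (aged). The habenula cluster held 3 spots in adult section 1 and is not described.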
